A study of Mus musculus with 12 samples.

Results

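The otic lineage transcription factors described here are 9 genes, Pax2, Pax8, Eya1, Eya4, Sox9, Sox10, Tbx1, Hmx2 and Hmx3, taken by name from a table of 22869 gene symbols. All 9 were found in the table, each with 1 RefSeq transcript row. They were measured by RNA-seq of polyA RNA from the cochlear epithelium of C57BL/6 mouse embryos at embryonic day 16.5. There were 3 Esrp1-/- embryos (knockout), whose genotype is at the gene for a regulator of splicing in epithelia, and 3 wild-type embryos (control). Both cochleae of 1 embryo were pooled, mesenchyme around them was taken off with collagenase P, and 2 directional libraries were made per embryo, which the deposited read counts give as 1 column. Replicates are individual embryos. The comparison asks whether RNA of the factors that build the ear differs between the genotypes.

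The inner ear forms from the otic placode, a patch of head ectoderm that folds in to become the otocyst and then the vestibular organs and the cochlear duct. PAX2 and PAX8 act among the earliest factors of the placode. EYA proteins are co-activators and phosphatases that act on genes through DNA-binding partners. SOX9 and SOX10 are closely related SOX proteins of the early ear that are also made by other tissues, SOX9 by cartilage and SOX10 by glia and pigment cells. TBX1 is a T-box factor of the otocyst and of the mesenchyme around it. HMX2 and HMX3 are homeodomain factors known from the mouse for vestibular development.

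The depth lay between 12547301 and 18473139 reads on genes in knockout embryos and between 16411205 and 21568517 in control embryos. Esrp1 fell to 27.2 to 39.1 CPM (read counts relative to library size, scaled by the TMM method) in knockout embryos, against 102 to 197 CPM in control embryos, a difference of -2.05 ± 0.26 on the log2 scale (SE; adjusted p = 0.0354 in edgeR's quasi-likelihood test). That call was lost when control 3 or any 1 knockout embryo was left out (adjusted p of 0.122 to 0.158), with log2 differences of -1.93 to -2.18 that stayed near the full one. Knockouts 2 and 3 stood apart from the other 4 embryos in Xist, which coats the silenced X chromosome, and in the Y-linked Ddx3y. They had 0.27 and 0.20 CPM of Xist and 94.9 and 81.8 CPM of Ddx3y, while knockout 1 and all controls had at least 1097 CPM of Xist and under 1 CPM of Ddx3y. By these genes, sex was partly confounded with genotype in the test of all knockout against all control embryos. The immediate early gene Fos set the 2 embryos numbered 1 apart, at 64.5 CPM in knockout 1 and 153 CPM in control 1, against 1.00 to 7.27 CPM in the other 4.

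No otic factor passed the test for a difference between knockout and control embryos. Of the 8 members with enough reads to be tested, 0 passed an adjusted p of 0.05 in edgeR's quasi-likelihood test, 0 had an unadjusted p under 0.05, and 0 passed in DESeq2. Over all 14717 genes tested, 4.77% had an unadjusted p under 0.05, DESeq2 called 1.04% of the 15982 genes it tested, and edgeR called 0.149% (0.0815% higher and 0.0679% lower in knockout embryos), so that 0 calls among 8 genes lies near the background share. Knockout and control embryos overlapped in level for each of the 8 members, while 9.84% of all genes tested had groups that did not overlap. The members' log2 fold changes ran from -0.57 for Hmx3 to 0.21 for Tbx1, with a median of -0.08 beside 0.00 over all genes. Two-sided exact permutation tests of 3 against 3 embryos gave p of 0.40 for Tbx1 and 0.50 to 1.0 for the other 7, where 0.10 is the smallest p this design can give. A p above the threshold does not show equal levels, so the interval of each difference is given with each gene. In whole tissue, fewer cells that express a factor and less of its RNA per cell cannot be told apart.

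**Figure D1:**
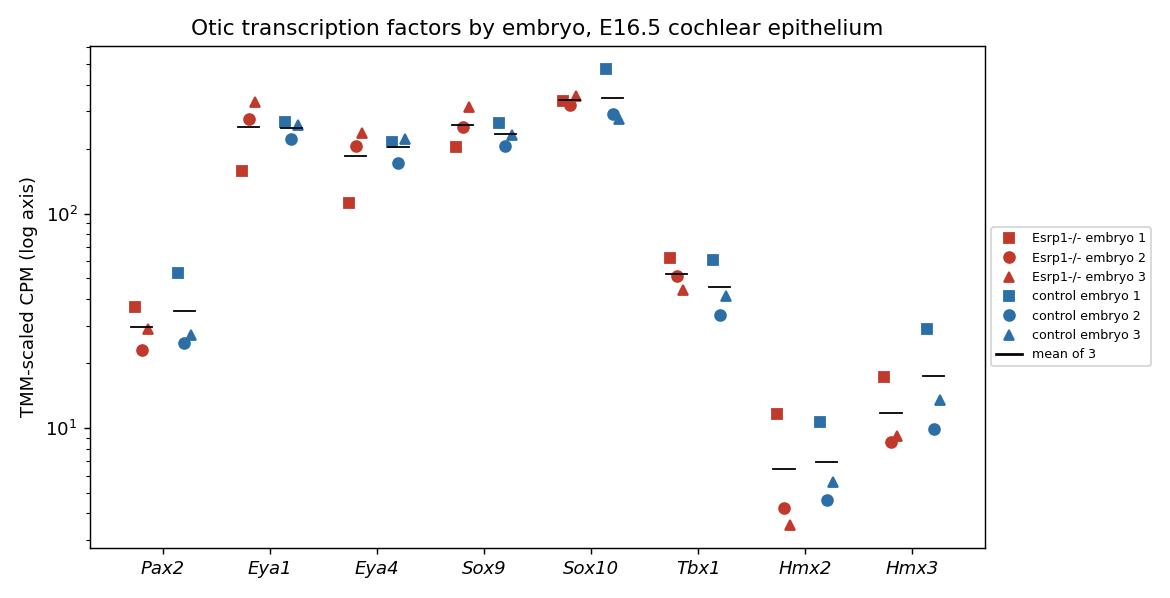
TMM-scaled CPM (log axis) of the 8 tested factors in the 3 Esrp1-/- embryos (red, left of each pair) and the 3 control embryos (blue, right), with 1 symbol per embryo number and a black line at the group mean. Red and blue points overlap for every gene, and the squares of embryos numbered 1 lie highest for Tbx1, Hmx2, Hmx3 and Pax2 in both groups.

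Per transcript length, the order of the members was nearly the same in both groups. The deposited FPKM (a read density scaled for transcript length and depth) of Sox10 averaged 51.8 ± 2.80 in knockout and 51.6 ± 12.3 in control embryos (SD, n = 3 each), and its lowest embryo lay above the highest embryo of every other member in both groups. Sox9 followed at 28.2 ± 4.30 FPKM in knockouts and 25.2 ± 1.40 FPKM in controls, then Eya1 at 24.1 ± 7.05 FPKM in knockouts and 23.6 ± 1.69 FPKM in controls. Eya4 had 18.6 ± 5.59 FPKM in knockouts and 20.3 ± 2.50 FPKM in controls. Neighbours in this order overlapped in the range of their embryos, Sox9 with Eya1 and Eya1 with Eya4, in both groups, while Sox9 and Eya4 did not overlap in either. Tbx1 stood at 12.4 ± 3.02 FPKM in knockouts and 10.3 ± 2.37 FPKM in controls, and overlapped with Eya4 in knockouts and with Hmx3 in controls. Below it, Hmx3 (4.01 ± 1.96 FPKM in knockouts, 5.52 ± 2.80 in controls) and Pax2 (4.50 ± 1.28 FPKM in knockouts, 5.04 ± 1.82 in controls) overlapped and were the one pair to trade places. Hmx2 came next at 1.82 ± 1.38 FPKM in knockouts and 1.84 ± 0.70 FPKM in controls, and Pax8 came last. By its mean FPKM over the 6 embryos, Sox10 stood above 97.3% of the genes tested, Pax2 above 50.6% and Hmx2 above 27.8%.

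PAX2 and PAX8 are paralogues that bind DNA through a paired domain. Pax2 (chromosome 19, 44746601 to 44838269, GRCm38) was read in every embryo and Pax8 (chromosome 2, 24420551 to 24475599) in 1, so the 250 bases before the RefSeq start site of each are shown, on GRCm38.p6, with capitals at the SOX core motif.
Pax2 (chr19:44755502-44755751, plus strand): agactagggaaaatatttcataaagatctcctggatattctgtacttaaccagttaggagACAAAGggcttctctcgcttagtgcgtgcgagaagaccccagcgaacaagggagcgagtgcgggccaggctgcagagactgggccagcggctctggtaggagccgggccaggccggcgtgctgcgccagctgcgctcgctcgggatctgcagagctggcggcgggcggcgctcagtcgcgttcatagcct
Pax8 (chr2:24475600-24475849, minus strand): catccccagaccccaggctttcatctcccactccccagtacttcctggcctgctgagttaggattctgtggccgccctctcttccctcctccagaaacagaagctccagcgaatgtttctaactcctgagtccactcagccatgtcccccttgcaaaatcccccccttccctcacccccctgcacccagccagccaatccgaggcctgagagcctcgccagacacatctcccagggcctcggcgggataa
The start site used for Pax8 is also that of its GENCODE transcript, while that for Pax2 lies 293 bases before its GENCODE transcript, which starts at 44756045. The longer range given for Pax2 spans all its RefSeq transcripts, so the window lies inside that range. The Pax2 window holds 20 CpG pairs and the Pax8 window 6, beside a median of 6.0 over 32851 promoters of the RefSeq table. Both strands were searched for short motifs, none of which contains another. The motifs were ACAATG or ACAAAG for SOX, CAAGTG for HMX and NKX and GGTGTGA for T-box factors. Of these, 1 match was found, the ACAAAG at base 61 of the Pax2 window, and 25.2% of all promoters hold either SOX form. The HMX and NKX motif stands in 11.6% and the T-box motif in 3.33% of all promoters. A match describes letters and is no evidence of binding.

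Pax2 had 36.7, 23.1 and 28.9 CPM in knockouts 1, 2 and 3, against 53.0, 25.02 and 27.3 CPM in controls 1, 2 and 3. Embryo 1 was the highest of each group, and the other 4 embryos lay together. On the log2 scale, knockouts differed from controls by -0.25 ± 0.30 (SE; adjusted p = 0.994 in edgeR's test), with a 95% interval of -0.92 to 0.43, that is, from 0.527-fold to 1.35-fold of control. Leaving out control 1, the highest embryo, turned the sign to 0.17.

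Pax8 had 28 reads in knockout 1 and 0 reads in each of the other 5 embryos, too few for the gene to enter the test. The 28 reads are 2.13 CPM, with an exact 95% Poisson interval of 1.42 to 3.08 CPM that covers counting error only. In the embryos without reads, the limit that a count of 0 allows (3 reads) was 0.161 and 0.200 CPM in knockouts 2 and 3 and 0.136 to 0.188 CPM in the controls. Pax8 was thus detected in 1 of 3 knockout embryos and not detectable at this depth in the others or in any control. It was 1 of 2 genes in the whole table with at least 20 reads in a single embryo and 0 in the other 5, the other being the gut peptide gene Pyy, also in knockout 1. With up to 2 reads allowed elsewhere, there were 4 such genes, all in knockout 1. The additional 2, named after their values were seen, were Nox3, an oxidase gene needed for otoconia in the mouse, at 4.57 CPM and the signal gene Wnt3a at 1.68 CPM in knockout 1. PAX8 is also a thyroid factor. The thyroid gene Tg had 0.53 CPM in knockout 1, below knockouts 2 and 3 (0.75 and 1.20 CPM) and inside the 0.25 to 0.75 CPM of controls. Tshr, the thyrotropin receptor gene, had 2.06, 11.2 and 6.73 CPM in knockouts 1, 2 and 3, against 1.503, 0.82 and 0.32 CPM in controls. Every knockout lay above every control for Tshr, with knockout 1 the lowest knockout, and its log2 fold change of 2.94 had an adjusted p of 0.263 in edgeR and 0.00082 in DESeq2. A non-coding gene, Gm13415, overlaps exons of Pax8 on the opposite strand. Whether the reads were counted by strand is not given in the sources used here, so reads of Pax8 and of that gene may not have been told apart. The authors' deposited table gave Pax8 an FDR of 0.150 and the other 8 members an FDR of 1.0.

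Eya1 and Eya4, paralogues linked in human to branchio-oto-renal syndrome and to progressive hearing loss, showed the lowest level in knockout 1. Eya1 (chromosome 1, 14168953 to 14311035) had 158, 276 and 330.4 CPM in knockouts 1, 2 and 3, against 266, 223 and 260.5 CPM in controls 1, 2 and 3. Eya4 (chromosome 10, 23102962 to 23350838) had 112, 206 and 239 CPM in the knockouts, against 216, 173 and 223 CPM in the controls. For both genes knockout 1 lay below every other embryo and knockout 3 above every other, so the knockouts enclosed the controls. The knockout SDs of 88.3 CPM for Eya1 and 65.9 CPM for Eya4 compare with control SDs of 23.3 and 27.3 CPM (n = 3 each). The log2 fold change of Eya1 was 0.03 ± 0.25 (SE, 95% interval -0.53 to 0.59) and that of Eya4 was -0.14 ± 0.26 (95% interval -0.72 to 0.45), both with an adjusted p of 0.994 in edgeR's test. With Xist as a covariate both were negative, at -0.71 for Eya1 and -0.90 for Eya4 (adjusted p = 0.0890 and 0.0810), in a fit where knockout 1 is the only knockout with Xist at control-like levels. Without knockout 1 both were positive, at 0.27 and 0.12.

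Among the members, Eya1 and Eya4 had the most similar pattern over embryos. Their log2 CPM, each less its own mean of the 6 embryos, differed by a root mean square of 0.09, where the median distance from Eya1 to 10770 genes with at least 10 mean CPM was 0.36. Genes outside the members lay closer to Eya1 than Eya4 did, with Ly75 nearest at 0.03. On the FPKM scale Eya1 stood at 1.27 to 1.32 times Eya4 in knockout embryos and at 1.11 to 1.23 times in control embryos. These ranges did not overlap, a pattern picked after its values were seen, among 3 such ratios, and not tested. The ratio of Hmx3 to Hmx2 (1.84 to 3.14 in knockouts, 2.56 to 3.30 in controls) and that of Sox10 to Sox9 (1.55 to 2.28 in knockouts, 1.67 to 2.51 in controls) had ranges that overlapped.

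The partners of EYA proteins showed no call. Six4, a DNA-binding factor that carries EYA proteins to DNA, had 70.6, 119 and 139 CPM in knockouts, against 125, 109 and 139 CPM in controls. Its lowest embryo was knockout 1, as for Eya1 and Eya4, and the groups overlapped. On the log2 scale Six4 differed by -0.18, and the corepressor gene Dach1 and Eya3 by -0.07 and 0.01 (adjusted p of 0.994 to 0.995, edgeR's test). Eya2, the remaining paralogue, had 26.3, 22.2 and 25.2 CPM in knockouts, against 18.0, 14.1 and 20.4 CPM in controls. Its groups did not overlap, and its log2 fold change was 0.49 ± 0.17 (SE, adjusted p = 0.803). In a list of 13 genes of the network around PAX and EYA proteins, 4 of them members, 11 were tested and 0 passed, with a median log2 fold change of 0.01. Of the 11, 1 was separated, Eya2, which lies near the 9.84% of all genes tested that were separated.

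**Figure D2:**
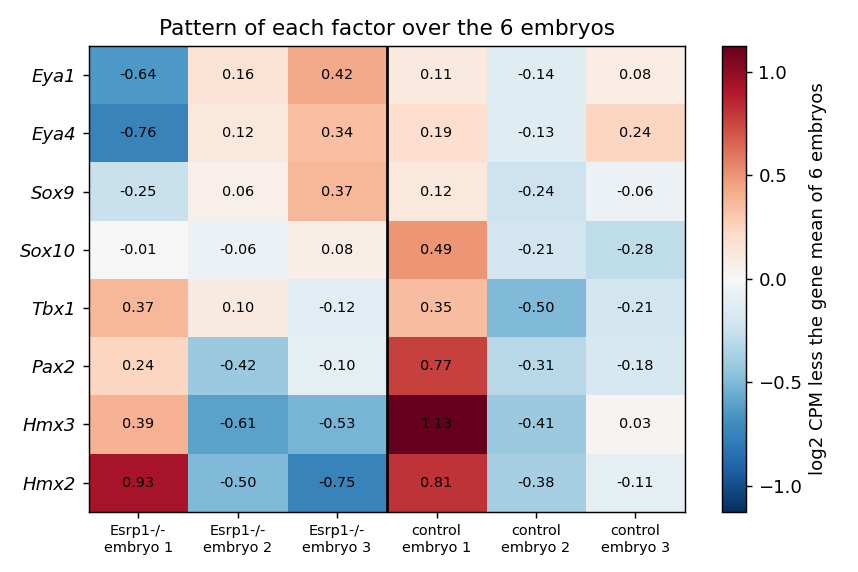
Log2 CPM of each factor in each embryo less the gene's mean over the 6 embryos, printed in each cell, with Esrp1-/- embryos left of the line and control embryos right of it. Eya1 and Eya4 are lowest in Esrp1-/- embryo 1 (-0.64 and -0.76), where Hmx2 is highest (0.93), and control embryo 1 is high for Hmx3 (1.13) and Pax2 (0.77).

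Sox10 and Sox9 belong to the same group of SOX factors. Sox10 (chromosome 15, 79154913 to 79164490) had 335, 322 and 355 CPM in knockouts 1, 2 and 3, against 474, 291 and 277 CPM in controls 1, 2 and 3. The knockouts lay close together between the controls. The difference was -0.04 ± 0.21 on the log2 scale (SE; adjusted p = 0.994 in edgeR's test), and its 95% interval of -0.52 to 0.44 reaches from 0.698-fold to 1.36-fold of control. Leaving out control 1 gave 0.25 in place of -0.04. Sox9 (chromosome 11, 112782210 to 112787757) had 205, 254 and 316 CPM in knockouts, against 265, 207 and 234 CPM in controls. Knockout 1 was the lowest embryo for Sox9 and knockout 3 the highest, the same 2 embryos as for Eya1 and Eya4. Sox9 had the smallest standard error of the members, with a log2 fold change of 0.13 ± 0.18 (95% interval -0.28 to 0.55, adjusted p = 0.994). Of the relatives, Sox8, the third gene of the group, had 11.1 ± 2.43 CPM in knockouts and 9.38 ± 1.00 CPM in controls (log2 fold change 0.24, adjusted p = 0.994), and Sox2, needed for the sensory patches, had 100.3 ± 24.5 CPM in knockouts and 106 ± 9.69 CPM in controls (-0.08, adjusted p = 0.994). Of 16 SOX genes 15 were tested and 0 passed, in edgeR or DESeq2, with 0 separated and a median log2 fold change of -0.01. The smallest p of the list was that of Sox3, at 4.88 CPM in knockout 1 and 0.13 to 0.88 CPM in the other 5 embryos.

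Genes of other cells that use SOX10 or SOX9 were read in every embryo. The 10 genes of Schwann cells and glia summed to 537 to 698 CPM in knockouts and 631 to 820 CPM in controls. Of these sums Erbb3 alone made up 242 to 421 CPM in knockouts and 294 to 422 CPM in controls. The 8 melanocyte genes summed to 118 to 198 CPM in knockouts and 191 to 256 CPM in controls, and 7 of them had a negative log2 fold change. For both lists 0 genes passed in edgeR or DESeq2. Of the melanocyte genes 5 of 8 had an unadjusted p under 0.05, against 4.77% of all genes, and 3 were separated, against 9.84% of all genes, while both counts were 0 of 10 for the glial genes. Both lists were chosen with earlier results of these data known, so these counts are description only. The median log2 fold change was -0.32 for the glial and -0.72 for the melanocyte list. Cartilage genes, 12 in all, summed to 4689 to 6609 CPM in knockouts and 4959 to 7232 CPM in controls. Of this sum Col2a1, a collagen gene that otic epithelium also expresses, made up 2193 to 3097 CPM in knockouts and 2469 to 3654 CPM in controls. Of 10 cartilage genes tested 0 passed and 1 was separated, with a median of 0.02. The cartilage genes Acan and Comp, picked from the list after their values were seen, were highest in knockout 2, at 23.8 and 8.64 CPM, with at most 10.3 and 0.76 CPM in the other 5 embryos. Col2a1 was highest in control 1, and the sum of the list in knockout 2, 5484 CPM, lay inside the range of the other embryos. The part of these cells in the levels of Sox10 and Sox9 was not tested.

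**Figure D3:**
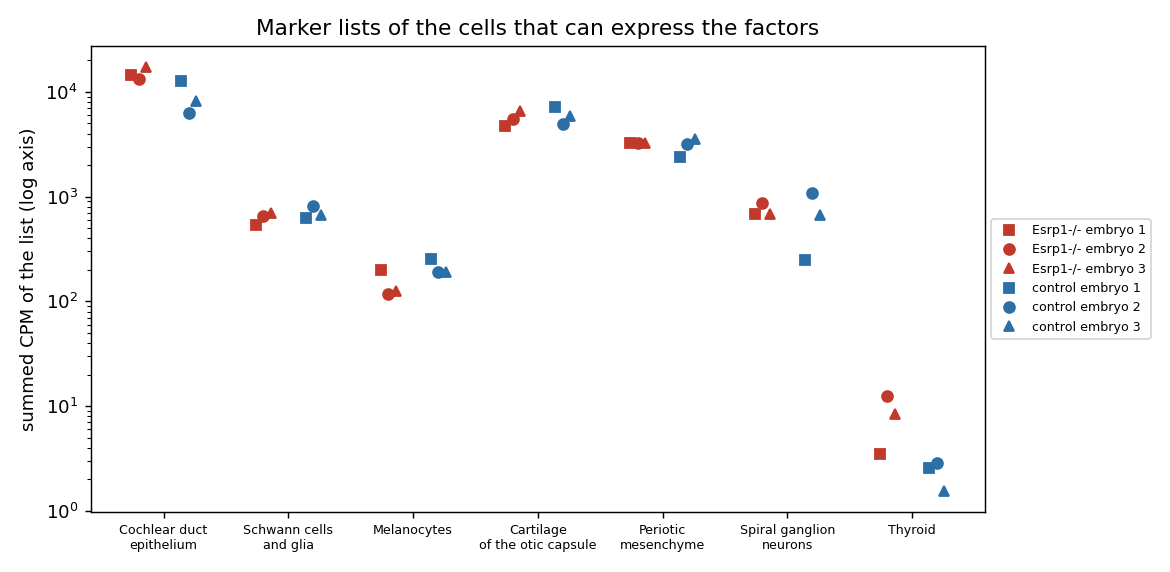
Summed CPM (log axis) of 7 marker lists in the 3 Esrp1-/- embryos (red, left) and the 3 control embryos (blue, right), with 1 symbol per embryo number. Glial, melanocyte, cartilage and mesenchymal genes were read in every embryo, and the neuronal sum was lowest in control 1 (247 CPM against 676 to 1086 CPM in the other 5 embryos).

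Tbx1 (chromosome 16, 18580979 to 18590671) had 61.9, 51.2 and 43.8 CPM in knockouts 1, 2 and 3, against 60.8, 33.8 and 41.4 CPM in controls 1, 2 and 3. Embryo 1 was the highest in both groups, nearly level between them, and the groups overlapped. Of the members it had the largest positive difference, 0.21 ± 0.23 on the log2 scale (SE; 95% interval -0.31 to 0.72, adjusted p = 0.994, edgeR's test). It kept its sign under all 15 alternatives tried, of which the row with second most reads reuses the same counts of Tbx1. Of 16 T-box genes, Tbx1 among them, 7 were tested and 0 passed, with 0 separated. Their median of 0.21 is the value of Tbx1 itself. Tbx2, a factor of the otocyst and the duct, had 198 ± 20.1 CPM in knockouts and 139 ± 51.0 CPM in controls (SD, n = 3 each, log2 fold change 0.51, adjusted p = 0.994). Tbx2 gained a call without both embryos numbered 1, at 0.76 (adjusted p = 0.0147), as did 5 other named genes, and sex and genotype cannot be told apart there. The 12 mesenchymal genes summed to 3242 to 3277 CPM in knockouts and 2395 to 3566 CPM in controls, with a median log2 fold change of 0.13 and 0 of 12 tested past the threshold. Their part in the level of Tbx1, which mesenchyme can also express, was not tested.

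Hmx3 and Hmx2 are neighbours on chromosome 7 (131541532 to 131546027 and 131548757 to 131558014), 2729 bases apart. In both groups they were highest in embryo 1. Hmx3 had 17.4, 8.64 and 9.14 CPM in knockouts 1, 2 and 3, against 28.9, 9.88 and 13.5 CPM in controls 1, 2 and 3. Hmx2 had 11.6, 4.24 and 3.53 CPM in the knockouts, against 10.7, 4.62 and 5.60 CPM in the controls. Embryo 1 thus had 1.95 times the mean of embryos 2 and 3 for Hmx3 in knockouts and 2.48 times in controls, and for Hmx2 2.98 times in knockouts and 2.10 times in controls. The spread between embryo 1 and the rest was larger than the difference between the group means. Of the members Hmx3 had the largest negative difference, -0.57 ± 0.42 on the log2 scale (SE; adjusted p = 0.994 in edgeR's test), with a 95% interval of -1.54 to 0.39, from 0.344-fold to 1.31-fold of control. Without control 1 it was -0.0027. Hmx2 had -0.12 ± 0.49 (adjusted p = 0.994) and the widest fold interval upward, 0.422-fold to 2.01-fold, on 53 to 152 reads per knockout and 102 to 171 reads per control. A 2-fold rise of Hmx2 therefore still lies inside its interval. Hmx1, the third gene of the family, had at most 0.08 CPM in any embryo. In the list of 8 homeobox relatives, which includes Hmx2 and Hmx3, 4 were tested and 0 passed, with 0 separated and a median of -0.02.

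The embryos numbered 1 also had 24.4 times (knockout) and 21.5 times (control) the Fos level of embryos 2 and 3 of their group, and 5.69 and 20.2 times the level of Egr1, a second immediate early gene. Pax2 and Tbx1 were higher in embryo 1 in the same way, by 1.41 and 1.30 times in knockouts and 2.03 and 1.62 times in controls. Eya1, Eya4 and Sox9 had 0.520, 0.504 and 0.720 times the level of the other embryos in knockout 1 and 1.10, 1.09 and 1.20 times in control 1. Embryo number 1 therefore went with higher Hmx and Pax2 levels in both groups, and with lower Eya levels in the knockout. The part of the Fos and Egr1 difference in these levels was not tested. Without both embryos numbered 1, Sox9, Sox10, Eya1 and Tbx1 had positive log2 fold changes with adjusted p of 0.245 to 0.358 in edgeR's test, but knockouts 2 and 3 then also differ from all controls in Xist and Ddx3y, so that sex and genotype cannot be told apart.

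**Figure D4:**
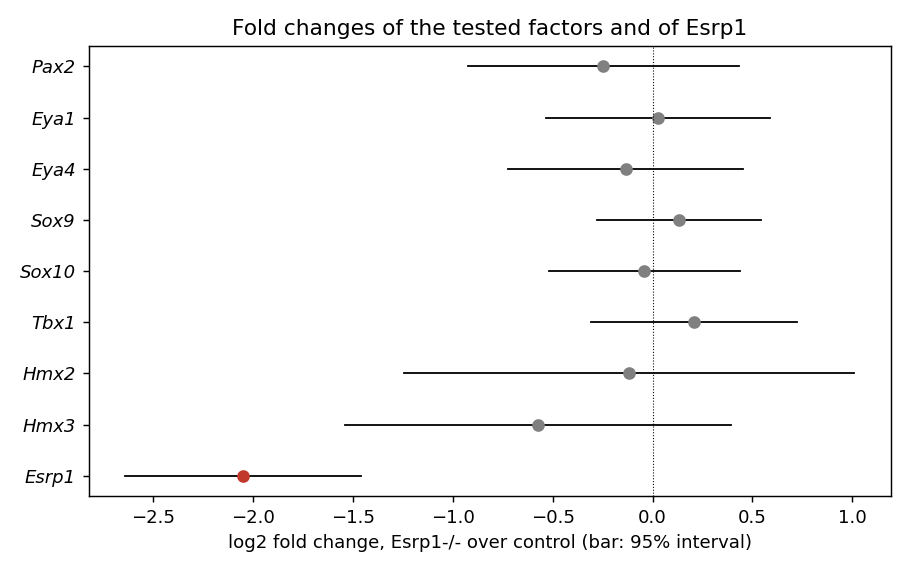
Log2 fold change of Esrp1-/- over control (dots) with 95% intervals (bars) for the 8 tested factors and Esrp1, from edgeR's quasi-likelihood fit, with red for an adjusted p under 0.05. All 8 factor intervals include 0, that of Hmx3 being -1.54 to 0.39, while Esrp1 lies at -2.05.

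By the nearest pattern over the 6 embryos, 2 genes were found for each member with at least 10 mean CPM. They were Ly75 and Satb1 for Eya1 (root mean square distances of 0.03 and 0.03), Acvr2b and Plod2 for Eya4 (0.04 and 0.05), Tpp1 and Tmem64 for Sox9 (0.04 and 0.05) and Scrib and Foxq1 for Sox10 (0.05 and 0.05). For Pax2 they were Atp2c2 and Mafk (0.09 and 0.09), for Tbx1 H2-T23 and Ctf1 (0.06 and 0.07), and for Hmx3 Bnipl and Ppp1r15a (0.19 and 0.21). The median distance over 10770 genes was between 0.26 for Sox9 and 0.63 for Hmx3. These distances describe 6 embryos, with all genes read from the same libraries.

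Of 34 further factors of the placode and otocyst 28 were tested and 0 passed in edgeR, while 3 were called higher in DESeq2 (Otx2, Dlx5 and Dlx6). Over all genes it tested, DESeq2 called 1.04% in either direction. Unadjusted p was under 0.05 for 11 of the 28, against 4.77% of all genes, and 12 of the 28 were separated, against 9.84% of all genes. Their median log2 fold change was -0.17. The list was chosen with earlier results of these data known, so these shares are description and no test of the list. Gata3, needed for the early ear, had 116, 259 and 262 CPM in knockouts, against 451, 324 and 324 CPM in controls (log2 fold change -0.79 ± 0.30, SE, adjusted p = 0.869). Every knockout lay below every control for Gata3. The size of its difference depended on the fit. It was -0.32 without both embryos numbered 1 (adjusted p = 0.117 in edgeR's test) and -1.71 with Xist as a covariate (adjusted p = 0.0787). Otx2, a factor of the duct's roof, had 75.9 ± 5.34 CPM in knockouts and 37.7 ± 17.5 CPM in controls (SD, n = 3 each, log2 fold change 1.01, adjusted p = 0.494), and Dlx5 had 6.75 ± 4.06 CPM in knockouts and 0.69 ± 0.35 CPM in controls (3.30, adjusted p = 0.106). Of 15 genes whose otic expression is altered in mouse mutants of the members, 14 were tested and 0 passed in edgeR, with a median of -0.03. Of the 14, 5 were separated, and DESeq2 called Bmp4 lower and Dlx5 higher. This list shares genes with the one before, among them Gata3 and Dlx5, so the counts of the lists are not separate. Bmp4, picked from this list after its values were seen, had 25.5, 42.3 and 48.3 CPM in knockouts, against 111, 89.1 and 96.4 CPM in controls (log2 fold change -1.35 ± 0.22, adjusted p = 0.106 in edgeR's test). Dlx5 of the same list went the other way, at 3.30. Among 8 PAX genes 3 were tested (Pax2, Pax3 and Pax9) and 0 passed, with Pax3 at 0.70 ± 0.46 CPM in knockouts and 1.88 ± 0.22 CPM in controls (-1.45, adjusted p = 0.712).

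Epithelial markers were read in every embryo. Epcam had 390.0 to 501 CPM in knockouts and 269 to 535 CPM in controls. Of the listed epithelial genes 13 of 13 were tested, with 0 past the threshold in edgeR. DESeq2 called 2 of them higher, Oc90 and Otoa, against 1.04% of all genes it tested called in either direction. The sum of the 13 genes, 13316 to 17270 CPM in knockouts and 6353 to 12594 CPM in controls, did not overlap between the groups. Oc90 alone made up 8215 to 10490 CPM of it in knockouts and 3037 to 6615 CPM in controls (log2 fold change 1.10, adjusted p = 0.377 in edgeR and 0.0061 in DESeq2). Without Oc90, the sum of the remaining epithelial genes overlapped between the groups. Of the other marker lists, 11 neuronal genes (median -0.13), 5 erythroid (-0.41), 5 myeloid (0.28), 5 endothelial (-0.17) and 3 thyroid genes (0.54) were tested and 0 passed in edgeR. In DESeq2 the thyroid gene Tshr was called higher, and 0 genes of the other 4 lists. The genes with the smallest adjusted p in these and the earlier lists were Prph, Hbb-y, Csf1r, Flt1, Tshr, Cdh19, Slc45a2, Matn1 and Lum, with log2 fold changes of -0.68, -0.64, 0.45, -0.28, 2.94, -1.09, -1.24, 1.18 and -0.54 and adjusted p of 0.263 for Tshr to 0.994.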

How the data were processed

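The read counts were deposited by the authors as raw reads per RefSeq transcript row, with 1 column per embryo holding its 2 libraries. The FPKM values are deposited per embryo under that name, per the file headers. The log2 fold changes and p-values with FDR in the authors' deposited table are, per the file headers, those of an edgeR test made by the authors. edgeR and the build mm10 are named in the submitters' processing notes. No aligner or counter is named in these sources, and 6 columns of values per embryo were not used.

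For each gene the row holding most reads over the 6 embryos was taken. Genes were kept with filterByExpr (minimum count 10), scaled by TMM and tested with edgeR 4.0.16's quasi-likelihood F test under R 4.3.3, with no block, Benjamini-Hochberg adjustment over all genes and a threshold of 0.05. Standard errors were derived as |log2 fold change| divided by the root of F, and intervals are 95% t intervals from them. Alternatives used DESeq2 1.42.0 and its size factors, no filter, the row with second most reads, limma 3.58.1 on log2 FPKM, a replicate block, Xist as a covariate and embryos left out. The tests were run on simulated data first. Promoters are RefSeq's on GRCm38.p6, which is mm10, and held 6 of the 9 members; Eya1, Sox9 and Sox10 were not among them. Named genes are the 9 members, Esrp1, 9 partners, any call or else the smallest adjusted p (ties by p) of each of 17 lists, and the 2 nearest patterns per member. Other genes named (Dlx6, Otoa, Pax9, Gm13415, Pyy, Nox3, Wnt3a, Tg, Erbb3, Col2a1, Acan, Comp, Epcam, Bmp4, Fos, Egr1, Xist and Ddx3y) were chosen after their values were seen. Some genes that the rule takes are not reported here. The members and lists were chosen with earlier results of these data known.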

Additional observations from a re-analysis of the deposited data

How the results depend on the processing

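Under 15 alternatives, 0 of the 120 fits of a member passed the threshold (smallest adjusted p 0.0810, Eya4 with Xist). The alternative with the row of second most reads reuses the members' own counts, since each has 1 row, and so is no separate check of them. Signs were not stable for many genes, also for some not near 0 in the main edgeR test, such as Sox3 (1.31), Hmx3 (-0.57) and Csf1r (0.45). With 1 embryo left out, log2 fold changes ran from -0.44 to 0.17 for Pax2, -0.21 to 0.27 for Eya1, -0.36 to 0.12 for Eya4, -0.040 to 0.27 for Sox9, -0.18 to 0.25 for Sox10 and -0.84 to 0.32 for Hmx2, and likewise from -0.95 to 1.86 for Sox3, -0.77 to 0.033 for Flt1, -0.40 to 0.043 for Six4, -0.069 to 0.090 for Eya3, -0.14 to 0.033 for Dach1 and -0.20 to 0.10 for Sox2. With Xist as a covariate the sign turned for Pax2 (0.10), Eya1 (-0.71), Sox9 (-0.22), Hmx2 (0.83), Hmx3 (0.065), Eya3 (-0.21) and Dach1 (0.0090). Without both embryos numbered 1, where sex and genotype cannot be told apart, it turned for Eya4 (0.16), Sox10 (0.25), Sox3 (-0.80), Csf1r (-0.10), Six4 (0.044) and Sox2 (0.18). From FPKM with a pseudocount of 0.1 or 1, Eya1 had -0.013 and -0.010 and Sox10 0.029 and 0.028. Eya3 had -0.0048 with DESeq2's size factors, -0.0066 in DESeq2 and -0.0064 without the count filter.

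The number of genes called was 22, and 166 in DESeq2, 159 without both embryos numbered 1, 5 with Xist and 0 to 30 with 1 embryo left out (0 without knockout 2 or control 3). The cause was not tested. With the embryo number as a replicate block, 6 genes and 0 members were called, and Eya1 had -0.031 and Sox10 0.0039. Esrp1 lost its call there and with Xist (adjusted p = 0.134 and 0.0787) at log2 fold changes of -1.996 and -2.36. Without both embryos numbered 1, Tbx2, Otx2 (adjusted p = 0.0069), Dlx5 (0.0166), Oc90 (0.0082), Tshr (0.010) and Matn1 (0.0227) gained a call. Otx2 (0.0266) and Oc90 (0.0468) also passed without control 1, Dlx5 without the count filter (0.0450), and Dlx5, Oc90, Tshr and Otx2 in DESeq2. Same-numbered embryos share a prefix in the labels, which do not say what it marks, and were not taken as pairs in the main edgeR test. Their deviations from the group means correlated at 0.08, 0.18 and 0.03 across genes. Knockouts 1 and 2 correlated best with the control of their own number, and knockout 3 with control 1 (0.11). Correlations this weak, from so few embryos, cannot decide whether the embryos are paired. Reads were few for Hmx2 (53 to 171 per embryo) and Pax8 (0 to 28).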
